A study of Mus musculus with 6 samples.

Results

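The genes described here encode the secreted and membrane proteins at the start of Wnt signalling. They were the rows of the deposited table whose symbol begins with Wnt, Fzd, Rspo, Sfrp or Dkk followed by a number, which gave 37 of 30777 rows. Of these, 15 were Wnt ligands, 10 were Frizzled receptors, 4 were R-spondins, 6 were Sfrp or Dkk inhibitors and 2 were non-coding genes named after a neighbouring member. RNA was sequenced from colon tissue of BALB/c mice, an inbred laboratory strain. The 5-Fu+BBR group (3 libraries) received 5-fluorouracil, a pyrimidine analogue used in chemotherapy that harms dividing cells, together with berberine, a plant alkaloid, and the 5-Fu group (3 libraries) received 5-fluorouracil alone. Both groups thus carry the drug, no untreated colon was analysed here, and the sources used here give no doses, times or ages. Nothing in the labels says that libraries of 1 group are from different animals, and a p-value here reflects only how far these samples spread.

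Wnt proteins are lipid-modified signals that act over short distances by binding a Frizzled receptor and the co-receptor Lrp5 or Lrp6, which stabilises beta-catenin and switches on target genes, or by Frizzled and Ror receptors, which act on cell polarity and calcium. R-spondins bind Lgr receptors and the ubiquitin ligases Rnf43 and Znrf3, and so keep Frizzled receptors at the cell surface. Sfrp proteins capture Wnt ligands outside the cell, and several Dkk proteins block Lrp5 and Lrp6. In the colon, stromal cells around the crypt base are a known source of Wnt ligands and R-spondins, and epithelial stem cells in the crypt depend on them.

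The promoters of Fzd7, Wnt2b and Wnt16 are shown because these were the members with an unadjusted p under 0.05 in the comparison described below. The sequences are from RefSeq (GRCm38.p6), run 5′ to 3′ on the gene's strand and cover 300 bases, most of them before the RefSeq start. Capitals mark the GC box GGGCGG, on either strand.
Fzd7, chr1:59481897-59482196, plus strand: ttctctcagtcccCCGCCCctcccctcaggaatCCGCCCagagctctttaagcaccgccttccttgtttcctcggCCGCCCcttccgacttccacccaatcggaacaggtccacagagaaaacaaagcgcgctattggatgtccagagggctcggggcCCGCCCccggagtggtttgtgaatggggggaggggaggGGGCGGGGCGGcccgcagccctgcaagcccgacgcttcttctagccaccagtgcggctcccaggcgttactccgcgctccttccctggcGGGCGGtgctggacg
Wnt2b, chr3:104961660-104961959, minus strand: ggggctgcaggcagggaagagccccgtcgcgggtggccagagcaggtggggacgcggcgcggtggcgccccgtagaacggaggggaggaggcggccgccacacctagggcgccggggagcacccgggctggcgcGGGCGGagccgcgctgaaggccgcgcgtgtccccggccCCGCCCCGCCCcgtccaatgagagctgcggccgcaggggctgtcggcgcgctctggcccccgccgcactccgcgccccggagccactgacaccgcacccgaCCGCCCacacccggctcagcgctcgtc
Wnt16, chr6:22287977-22288276, plus strand: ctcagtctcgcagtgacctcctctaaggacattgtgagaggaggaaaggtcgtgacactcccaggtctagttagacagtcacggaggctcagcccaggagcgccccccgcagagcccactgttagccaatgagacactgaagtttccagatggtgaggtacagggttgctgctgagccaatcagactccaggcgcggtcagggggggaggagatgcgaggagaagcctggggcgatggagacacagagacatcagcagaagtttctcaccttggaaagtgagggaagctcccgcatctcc
The Fzd7 window held 7 GC boxes and the Wnt2b window 4, some of them overlapping each other, and the Wnt16 window held 0. Promoter windows of 23 coding members were counted, 26 windows in all. Of these windows, 20 held a GC box, against 35.7% of the 32851 windows of the table. Fzd8 and some other tested members, among them Fzd2, Dkk3 and Sfrp1, were not in this set, so the counts do not cover them. The median member window had 29.0 CpG dinucleotides and 70.0% G or C, against 7.0 and 52.7% over all windows. The TCF/LEF motif, searched as CTTTGAT or CTTTGAA on both strands, was in 2 of the 26 member windows (Wnt5b and Wnt11), against 8.65% of all windows, and in none of the 3 sequences above. The TATA box TATAAA, also searched on both strands, was in 3 member windows (Dkk2, Fzd1 and Wnt11), against 13.6% of all windows.

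The libraries held between 53824752 and 63831168 estimated counts. The tissue label was checked with 13 markers of colon epithelium, which summed to between 5780 and 6240 FPKM in 5-Fu+BBR and between 5590 and 6430 FPKM in 5-Fu, with none at 0. FPKM counts fragments per length of transcript and per depth of library, and is used here for every comparison between genes. The colon epithelium sum was led by Krt8 and Krt19, and single markers varied more than the sum. Aqp8 was at 164, 221 and 384 FPKM in 5-Fu+BBR and at 40.3, 24.1 and 184 FPKM in 5-Fu. Slc26a3 was at 47.1, 45.9 and 107 FPKM in 5-Fu+BBR and at 73.4, 32.2 and 101 FPKM in 5-Fu. Of the 13, 8 had higher values in 5-Fu+BBR and 5 lower ones, and all overlapped between the groups. Marker sums of other cell types differed between the libraries. Markers of kidney summed to 26.6, 178 and 167 FPKM in 5-Fu+BBR libraries 1 to 3, against 18.9, 21.8 and 21.3 FPKM in 5-Fu libraries 1 to 3, so 5-Fu+BBR libraries 2 and 3 stood apart. Kap alone was at 11.5, 133 and 127 FPKM in 5-Fu+BBR, most of the sum in libraries 2 and 3. Of the 12 kidney markers, 11 had higher values in 5-Fu+BBR and 1, Nphs1, lower ones. Cyp2e1 and Napsa were above every 5-Fu library in 5-Fu+BBR library 1 too. Fat cell markers summed to between 41.9 and 85.3 FPKM in 5-Fu+BBR and between 4.5 and 14.8 FPKM in 5-Fu, where Lep was at 0 in every library and Adipoq and Plin1 at 0 in libraries 1 and 3. Smooth muscle markers summed to between 1390 and 1680 FPKM in 5-Fu+BBR and between 769 and 1020 FPKM in 5-Fu. Leukocyte markers summed to between 361 and 465 FPKM in 5-Fu+BBR and between 242 and 295 FPKM in 5-Fu.

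Across the 6 libraries the classes differed in level. The Frizzled receptor Fzd5, the divergent Dickkopf protein Dkk3 and the receptor Fzd1 were the members at 5 FPKM or more on average. A further 10 members lay between 1 and 5 FPKM, 9 between 0.1 and 1 FPKM and 13 under 0.1 FPKM. Among all genes tested, Fzd5 was above 78.1%, Dkk3 above 77.0%, Sfrp1 above 59.4% and Wnt4, the highest ligand, above 44.4%. Summed over each class, Frizzled receptors were at 26.9 ± 1.05 FPKM in 5-Fu+BBR and 25.7 ± 2.46 FPKM in 5-Fu (SD, n = 3 each, as for all means here). Inhibitors summed to 17.0 ± 1.76 FPKM in 5-Fu+BBR and 15.6 ± 1.76 FPKM in 5-Fu. Ligands summed to 6.77 ± 0.834 FPKM in 5-Fu+BBR and 5.07 ± 2.09 FPKM in 5-Fu, and R-spondins to 1.63 ± 0.379 FPKM in 5-Fu+BBR and 1.68 ± 0.217 FPKM in 5-Fu. The groups overlapped in all 4 sums.

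**Figure D1:**
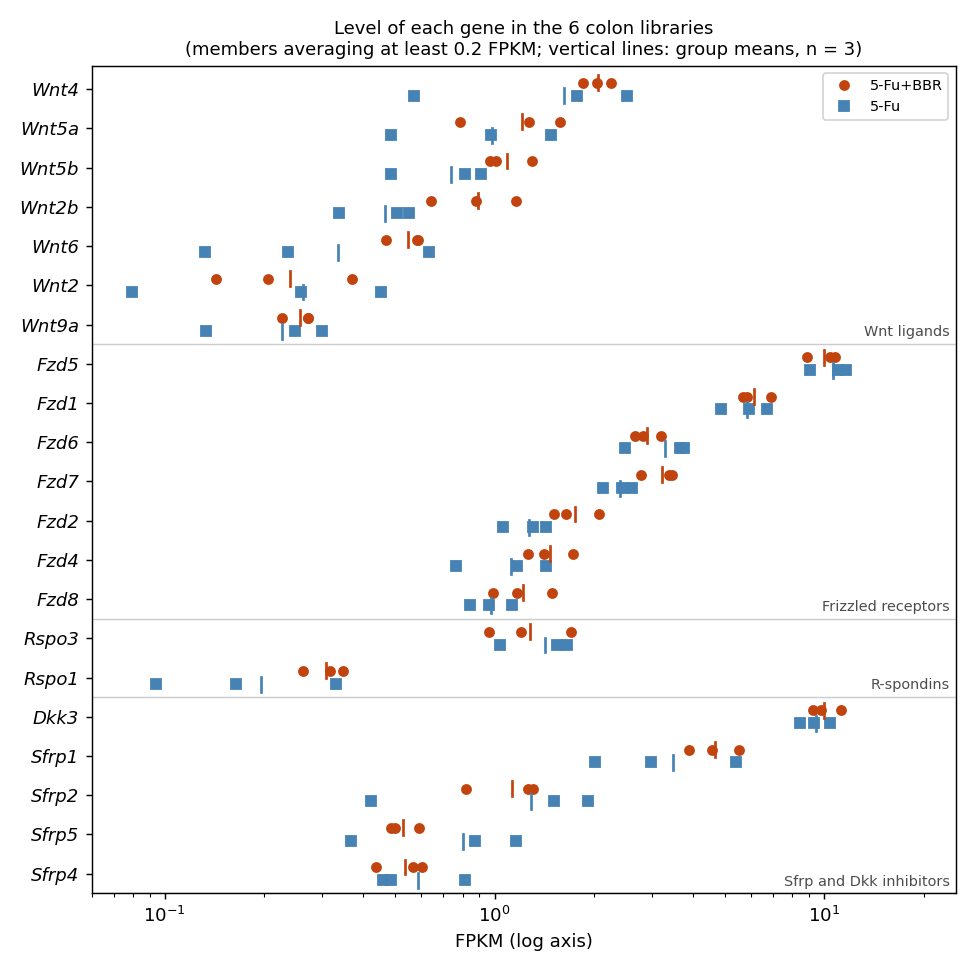
FPKM (log axis) of each member that averaged at least 0.2 FPKM, by library, with the 5-Fu+BBR libraries as orange circles, the 5-Fu libraries as blue squares and the group means (n = 3) as vertical lines. Fzd5 and Dkk3 lay near 10 FPKM in both groups, and the circles lay wholly to the right of the squares for Wnt5b, Wnt2b, Fzd7 and Fzd2.

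**Figure D2:**
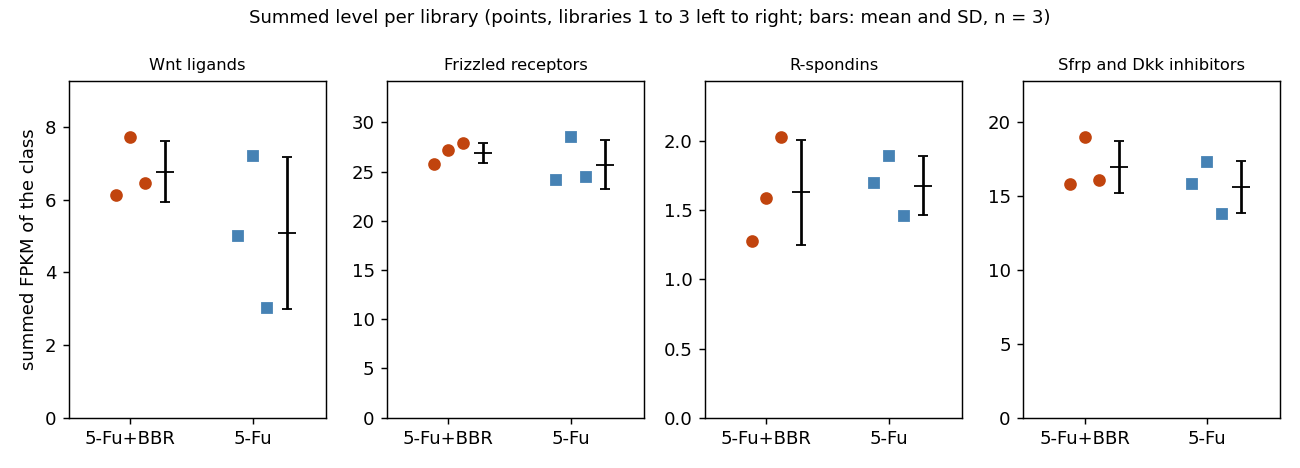
Summed FPKM of the members of each class in each library, with the mean and SD (n = 3) as bars beside the points. The 5-Fu+BBR and 5-Fu libraries overlapped in every class, and the ligand sum ran from 3.03 to 7.2 FPKM among the 5-Fu libraries.

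The comparison of 5-Fu+BBR with 5-Fu asked which members differ when berberine is added to 5-fluorouracil. No coding member passed an adjusted p of 0.05 by edgeR's quasi-likelihood test with Benjamini-Hochberg adjustment over all 20101 genes tested, so none is called higher or lower. This was 0 of the 30 coding members tested, beside 0.0746% of all genes in either direction, 0.0597% higher and 0.0149% lower. At an unadjusted p under 0.05 there were 3 members, Wnt2b, Wnt16 and Fzd7, all with higher values in 5-Fu+BBR, beside 15.6% of all genes in either direction, 9.48% higher and 6.08% lower. Of these 3, none remained under 0.05 without 5-Fu+BBR library 2, where edgeR gave Wnt2b, Wnt16 and Fzd7 unadjusted p values of 0.0887, 0.0819 and 0.0712. Only Wnt16 remained without 5-Fu library 1, only Fzd7 without 5-Fu+BBR library 1, only Wnt2b without 5-Fu+BBR library 3, and Wnt2b and Fzd7 without either of the other 5-Fu libraries. Other members came under 0.05 in the same step, Wnt6 and Sfrp1 without 5-Fu library 2, and Rspo1 and Sfrp5 without 5-Fu library 3. Without 5-Fu+BBR library 3, 2 ligands were under 0.05, Wnt2b and a ligand that the main fit did not test, whose direction is not given here. Wnt16 was not tested with counts divided by 4, with a filter of 50 counts in 3 samples or by limma-trend on FPKM. With counts divided by 4 and with the filter of 50 counts, Wnt2b, Fzd7 and Fzd2 were under 0.05 by edgeR. With a replicate block, Wnt2b and Fzd7 stayed under 0.05 by edgeR and Wnt16, at 0.05, did not. The 3 libraries of 5-Fu+BBR all lay above those of 5-Fu for 5 members and all below for 1, beside 12.3% and 9.68% of all genes, so the members' count was near the background. The log2 fold change, 5-Fu+BBR minus 5-Fu throughout, was positive for 19 of 30 members, beside 50.7% of all genes, and its median was 0.15, beside 0.01 over all genes. DESeq2 called 0 of the 29 members it gave an adjusted p, beside 6.48% of all genes with an adjusted p (4.65% higher and 1.83% lower), and put 4 members at an unadjusted p under 0.05, beside 17.4% of all genes. The limma-voom test also called 0 of 30, beside 0.0796% of all genes, with 3 at an unadjusted p under 0.05, beside 16.5%. By limma-trend on log2(FPKM + 1), 0 of 23 were called, beside 0.0395%, with 2 at an unadjusted p under 0.05, beside 14.6%.

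**Figure D3:**
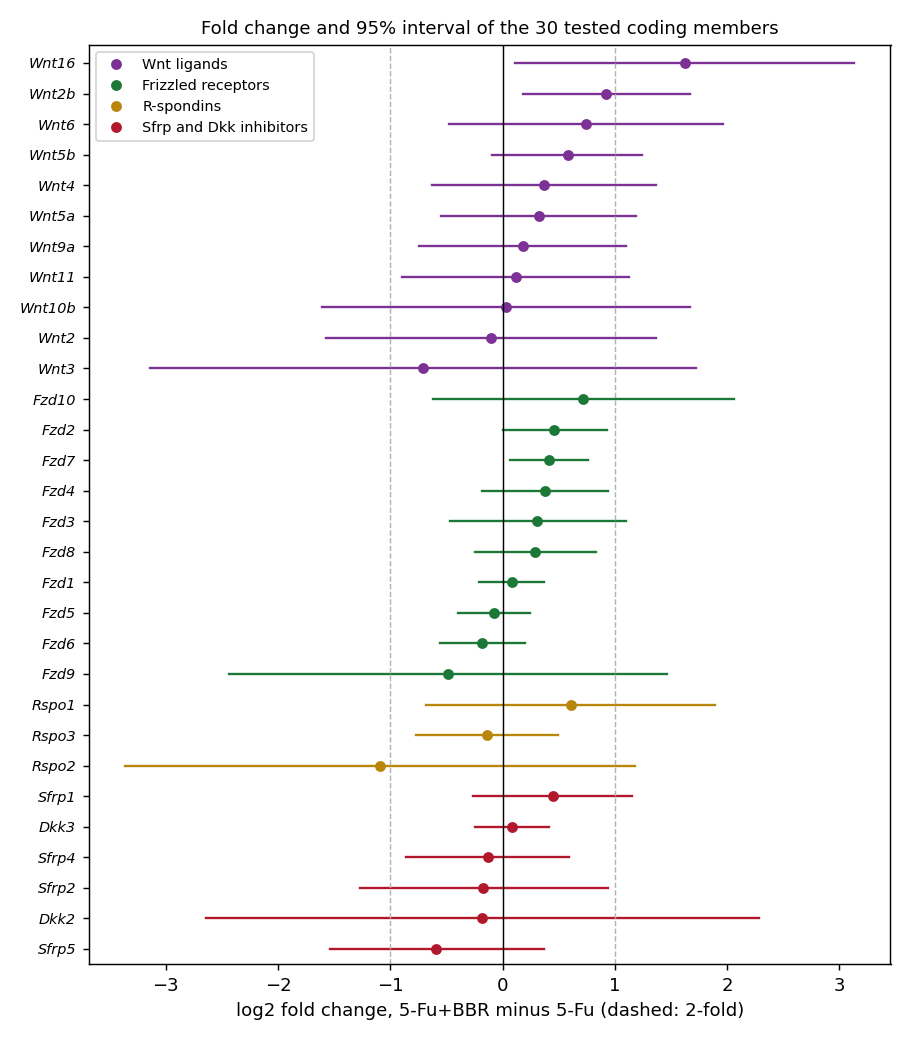
Log2 fold change, 5-Fu+BBR minus 5-Fu, of the 30 tested coding members by edgeR, with bars for the 95% interval, ordered within each class. The interval left out 0 for 3 members, Wnt16, Wnt2b and Fzd7, and lay within 2-fold either way (dashed lines) for 10, of which 7 were Frizzled receptors and 0 were ligands.

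Among the Wnt ligands, 11 of 15 were expressed highly enough to be tested. Wnt2b, a ligand of the beta-catenin branch made by intestinal mesenchyme (ENSMUSG00000027840, chromosome 3, 104945272 to 104961921 of GRCm38, minus strand), was at 0.876, 1.16 and 0.64 FPKM in the 5-Fu+BBR libraries and at 0.338, 0.505 and 0.55 FPKM in the 5-Fu libraries. The groups did not overlap, and 5-Fu+BBR library 2 stood highest. The means were 0.892 ± 0.259 FPKM in 5-Fu+BBR and 0.464 ± 0.112 FPKM in 5-Fu, a log2 fold change of 0.92 ± 0.32 (SE, 95% interval 0.18 to 1.67), with an adjusted p of 0.244 by edgeR and 0.0957 by DESeq2. In bulk tissue, a difference in the number of cells of a type and a difference in RNA per cell cannot be told apart.

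Wnt5b, a relative of Wnt5a (ENSMUSG00000030170, chromosome 6, 119432531 to 119544347, minus strand), was at 1.01, 1.3 and 0.972 FPKM in 5-Fu+BBR and at 0.815, 0.91 and 0.485 FPKM in 5-Fu. Its groups did not overlap, though the lowest 5-Fu+BBR library and the highest 5-Fu library lay close together. The log2 fold change was 0.58 ± 0.29 (95% interval -0.09 to 1.24), with an adjusted p of 0.383 by edgeR. Wnt16, best known from its role in bone (ENSMUSG00000029671, chromosome 6, 22288227 to 22298522, plus strand), was at 0.107, 0.0859 and 0.0742 FPKM in 5-Fu+BBR and at 0.0487, 0.0115 and 0.0263 FPKM in 5-Fu. These levels rest on 35, 25 and 22 estimated counts in 5-Fu+BBR and on 14, 4 and 8 in 5-Fu, which may rest on fewer fragments. The groups did not overlap, and the log2 fold change was 1.62 ± 0.66 (95% interval 0.11 to 3.13), with an adjusted p of 0.289 by edgeR.

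Wnt4, which can act through either branch (ENSMUSG00000036856, chromosome 4, 137277489 to 137299726, plus strand), was at 1.86, 2.05 and 2.26 FPKM in 5-Fu+BBR and at 1.78, 2.52 and 0.57 FPKM in 5-Fu. The 5-Fu libraries held both the highest and the lowest value, so the groups overlapped (log2 fold change 0.37 ± 0.43, 95% interval -0.63 to 1.37, adjusted p = 0.721 by edgeR). Wnt5a, the typical ligand of the polarity and calcium branch, was at 0.788, 1.58 and 1.27 FPKM in 5-Fu+BBR and at 0.974, 1.48 and 0.486 FPKM in 5-Fu. Its groups overlapped as well, with 5-Fu library 3 again lowest (log2 fold change 0.32 ± 0.37, 95% interval -0.55 to 1.19, adjusted p = 0.726 by edgeR). The other ligands tested, Wnt6, Wnt2, Wnt9a, Wnt11, Wnt10b and Wnt3, were under 0.7 FPKM in every library and overlapped between groups, with log2 fold changes between -0.71 and 0.74. Wnt10a, Wnt7b, Wnt7a and Wnt9b had between 0 and 12 counts in each library and were not tested. Over the 11 ligands tested the median log2 fold change was 0.32 and 9 were positive, but without 5-Fu library 3 the median was 0.06, without 5-Fu+BBR library 2 it was 0.13, and without 5-Fu library 2 it was 0.69.

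All 10 Frizzled receptors were tested. Fzd7, a receptor that mouse intestinal stem cells rely on (ENSMUSG00000041075, chromosome 1, 59482424 to 59486955, plus strand), was at 2.79, 3.37 and 3.46 FPKM in 5-Fu+BBR and at 2.14, 2.62 and 2.43 FPKM in 5-Fu. Every 5-Fu+BBR library was above every 5-Fu library, by a small margin between the closest ones. The means were 3.21 ± 0.363 FPKM in 5-Fu+BBR and 2.4 ± 0.241 FPKM in 5-Fu, a log2 fold change of 0.41 ± 0.15 (95% interval 0.07 to 0.76), with an adjusted p of 0.257 by edgeR and 0.156 by DESeq2. As a share of the summed Frizzled FPKM, Fzd7 made up 11.9% ± 0.92 in 5-Fu+BBR and 9.33% ± 0.537 in 5-Fu. These shares did not overlap, but they restate the same Fzd7 values and are not a separate result. The shares of Fzd2, 6.47% ± 1.02 in 5-Fu+BBR and 4.92% ± 0.563 in 5-Fu, did not overlap as well.

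Fzd2, a close relative of Fzd1 and Fzd7, was at 1.51, 2.08 and 1.65 FPKM in 5-Fu+BBR and at 1.31, 1.43 and 1.06 FPKM in 5-Fu. The groups did not overlap, and 5-Fu+BBR library 2 stood highest (log2 fold change 0.46 ± 0.20, 95% interval 0.00 to 0.93, adjusted p = 0.325 by edgeR). Fzd1 itself was at 5.84, 6.9 and 5.67 FPKM in 5-Fu+BBR and at 5.92, 6.72 and 4.85 FPKM in 5-Fu, with the groups overlapping. Its log2 fold change was 0.08 ± 0.13 (95% interval -0.21 to 0.37, adjusted p = 0.816 by edgeR), so a 2-fold difference lies outside the interval. Members of one receptor subfamily thus gave different point values, but the difference between them was not tested.

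Fzd5, needed for Paneth cell maturation in the mouse small intestine (ENSMUSG00000045005, chromosome 1, 64730558 to 64737751, minus strand), was at 10.4, 8.88 and 10.8 FPKM in 5-Fu+BBR and at 9.07, 11.6 and 11.0 FPKM in 5-Fu. It was the most abundant Frizzled, with 37.2% ± 3.96 of the class sum in 5-Fu+BBR and 41.2% ± 3.79 in 5-Fu, and its groups overlapped (log2 fold change -0.08 ± 0.14, 95% interval -0.40 to 0.24, adjusted p = 0.82 by edgeR). Its relative Fzd8 was at 0.992, 1.17 and 1.49 FPKM in 5-Fu+BBR and at 0.96, 0.845 and 1.13 FPKM in 5-Fu, also overlapping (log2 fold change 0.29 ± 0.23, adjusted p = 0.594 by edgeR). Fzd6, a receptor of the polarity branch, was at 2.82, 2.66 and 3.19 FPKM in 5-Fu+BBR and at 3.75, 3.65 and 2.48 FPKM in 5-Fu. Here 5-Fu library 3 lay below, and the other 5-Fu libraries above, every 5-Fu+BBR library (log2 fold change -0.18 ± 0.17, 95% interval -0.56 to 0.20, adjusted p = 0.653 by edgeR). Fzd4, the receptor for norrin as well as Wnt ligands, was at 1.26, 1.73 and 1.41 FPKM in 5-Fu+BBR and at 0.765, 1.43 and 1.17 FPKM in 5-Fu, with an overlap between the groups (log2 fold change 0.38 ± 0.24, adjusted p = 0.502 by edgeR). Fzd9, Fzd3 and Fzd10 averaged under 0.2 FPKM in each group and overlapped, with log2 fold changes of -0.49, 0.31 and 0.72. The median over the 10 receptors was 0.30, with 7 positive, and lay between 0.14 and 0.40 when single libraries were left out.

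R-spondins were carried mainly by Rspo3, the main R-spondin of mouse colon stroma, which made up 78.0% ± 4.87 of the class sum in 5-Fu+BBR and 83.3% ± 10.4 in 5-Fu. Rspo3 was at 0.959, 1.2 and 1.7 FPKM in 5-Fu+BBR and at 1.55, 1.66 and 1.04 FPKM in 5-Fu. The groups overlapped over most of their range (log2 fold change -0.14 ± 0.27, 95% interval -0.77 to 0.49, adjusted p = 0.855 by edgeR). Rspo1 was at 0.262, 0.346 and 0.317 FPKM in 5-Fu+BBR and at 0.094, 0.164 and 0.331 FPKM in 5-Fu, with an adjusted p of 0.653 by edgeR. Rspo2 was the 1 member with lower values in all 5-Fu+BBR libraries, at 0.056, 0.0465 and 0 FPKM in 5-Fu+BBR against 0.0628, 0.0702 and 0.0861 FPKM in 5-Fu. At that depth its log2 fold change was -1.09 ± 0.98, with a 95% interval of -3.36 to 1.18 and an adjusted p of 0.643 by edgeR. Rspo4 was listed at 0 in every 5-Fu library and had 3 counts in 1 5-Fu+BBR library, so it was not tested.

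None of the 6 inhibitors had an unadjusted p under 0.05 or groups that did not overlap. Dkk3, whose action on Wnt signalling is less settled than that of its relatives (ENSMUSG00000030772, chromosome 7, 112116017 to 112159057, minus strand), was at 9.24, 11.2 and 9.74 FPKM in 5-Fu+BBR and at 9.34, 8.45 and 10.4 FPKM in 5-Fu. Its groups overlapped closely, and the log2 fold change of 0.08 ± 0.14 had a 95% interval of -0.25 to 0.41 (adjusted p = 0.836 by edgeR). Sfrp1, a secreted Wnt-binding protein (ENSMUSG00000031548, chromosome 8, 23411502 to 23449632, plus strand), was at 4.56, 5.52 and 3.89 FPKM in 5-Fu+BBR and at 2.99, 5.41 and 2.02 FPKM in 5-Fu. In 5-Fu library 2 the level was within the 5-Fu+BBR range, and in the other 5-Fu libraries it was below it (log2 fold change 0.45 ± 0.30, 95% interval -0.26 to 1.15, adjusted p = 0.53 by edgeR). Without 5-Fu library 2 the log2 fold change of Sfrp1 was 0.86, with an unadjusted p of 0.00422, and with a replicate block it was 0.52, with an unadjusted p of 0.025 by edgeR. Sfrp2, a relative of Sfrp1, was at 0.82, 1.31 and 1.26 FPKM in 5-Fu+BBR and at 1.52, 1.92 and 0.422 FPKM in 5-Fu, where the 5-Fu libraries spanned the whole 5-Fu+BBR range (log2 fold change -0.17 ± 0.48, adjusted p = 0.902 by edgeR). Sfrp5, Sfrp4 and Dkk2 overlapped between the groups, with log2 fold changes of -0.59, -0.13 and -0.18. Without 5-Fu library 3 the log2 fold change of Sfrp5 was -0.89, with an unadjusted p of 0.0305 by edgeR. The median over the 6 inhibitors was -0.15, with 2 positive, and it was 0.08 without 5-Fu library 2 and 0.02 without 5-Fu library 1.

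The summed FPKM of the inhibitors was above that of the ligands in all 6 libraries. The ratio of inhibitors to ligands was 2.57, 2.46 and 2.5 in 5-Fu+BBR and 3.17, 2.4 and 4.55 in 5-Fu. The 5-Fu+BBR libraries lay close together, within the range of the 5-Fu libraries, and the highest ratio was in 5-Fu library 3. Dkk3 alone made up 59.2% ± 0.954 of the inhibitor sum in 5-Fu+BBR and 61.2% ± 13.6 in 5-Fu, and most of the excess of inhibitors rested on it. Without Dkk3, an alternative added after the values were seen and given no test, the ratio was 1.06, 1.01 and 0.99 in 5-Fu+BBR and 1.3, 1.23 and 1.1 in 5-Fu. These ratios are closer to level, and those of 5-Fu+BBR lay below those of 5-Fu. Inhibitors stayed above ligands in every library but 5-Fu+BBR library 3. The sums hold only genes that match the symbol rule. The secreted modulator Frzb does not, and was at 2.26 ± 0.762 FPKM in 5-Fu+BBR and 1.54 ± 0.15 FPKM in 5-Fu.

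Library 3 of 5-Fu held the lowest FPKM for 11 of the 30 coding members tested (36.7%, beside 28.2% of all genes), and 5-Fu+BBR library 2 the highest for 11 (36.7%, beside 19.3%). The summed levels of stromal markers also differed between libraries. The 13 fibroblast markers, of which 0 were called by edgeR and 3 had higher values at an unadjusted p under 0.05, summed to 282, 256 and 227 FPKM in 5-Fu+BBR and to 173, 314 and 87.6 FPKM in 5-Fu. In this sum 5-Fu library 3 was lowest and 5-Fu library 2 highest, with none of the markers at 0, and 5-Fu+BBR library 2 was not the highest. The 10 markers of subepithelial mesenchyme, a stromal layer under the crypt, summed to 88.4, 92.1 and 88.8 FPKM in 5-Fu+BBR and to 75.7, 106 and 58.3 FPKM in 5-Fu, the same order of 5-Fu libraries. Of these 10, edgeR called 0, DESeq2 called 2 (F3 and Foxl1) and 4 had higher values at an unadjusted p under 0.05 by edgeR. For 5 of them every 5-Fu+BBR library was above every 5-Fu library, beside 12.3% of all genes. The log2 fold change was positive for 9, beside 50.7% of all genes. The 1 negative marker, Grem1, was at 8.57, 8.81 and 7.73 FPKM in 5-Fu+BBR and at 11.0, 33.1 and 4.88 FPKM in 5-Fu. F3 and Foxl1 did not follow the order of the 5-Fu libraries in the sum. For smooth muscle, edgeR called 0 of 10 markers and DESeq2 called 8, all higher, and 9 did not overlap between groups, beside 12.3% of all genes. For comparison, DESeq2 called 4.65% of all genes higher, and edgeR put 9.48% higher at an unadjusted p under 0.05. Endothelial markers summed to between 15.0 and 18.7 FPKM in 5-Fu+BBR and between 11.6 and 20.1 FPKM in 5-Fu, enteric neuron and glia markers to between 16.5 and 23.8 FPKM in 5-Fu+BBR and between 18.6 and 19.9 FPKM in 5-Fu, and mesothelial markers to between 3.0 and 7.14 FPKM in 5-Fu+BBR and between 2.64 and 7.38 FPKM in 5-Fu. The part of any of these cell types in the values of the Wnt members was not tested.

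**Figure D4:**
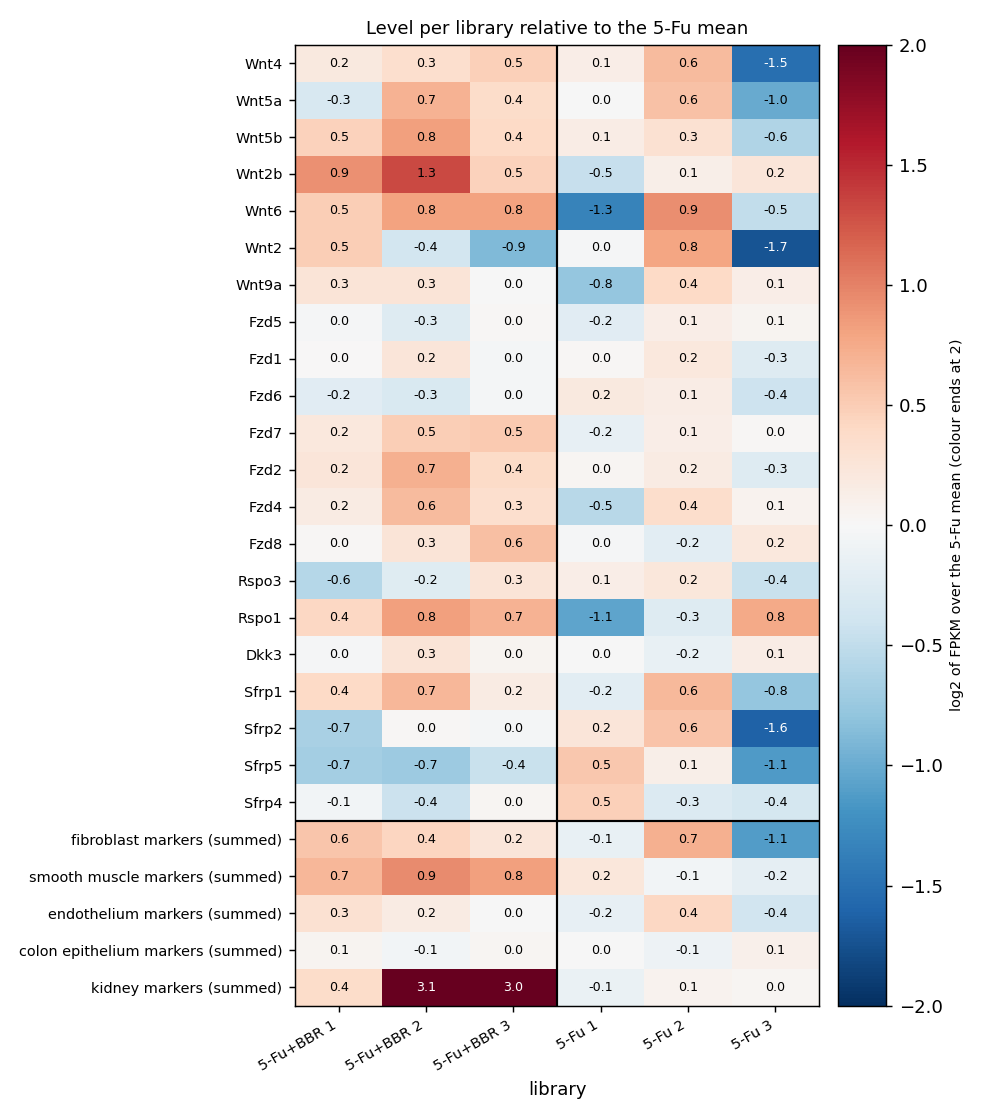
Log2 of each library's FPKM over the mean of the 5-Fu libraries, for members averaging at least 0.2 FPKM (top) and for summed cell type markers (bottom), with 5-Fu+BBR libraries to the left of 5-Fu libraries; the colours end at 2, the printed values do not. In 5-Fu library 3, 13 of the 21 members shown lay below the 5-Fu mean (Wnt2, Sfrp2 and Wnt4 lowest) and 8 above it (Rspo1 highest), and the fibroblast sum was low, while in 5-Fu+BBR libraries 2 and 3 the kidney sum was high.

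Other genes of the pathway were described from 6 lists, and edgeR called none of their members. Counts at an unadjusted p under 0.05 in these lists stand beside the 9.48% higher and 6.08% lower of all genes, and calls by DESeq2 beside 4.65% higher and 1.83% lower. Among 16 receptor partners, 2 were higher and 1 lower at an unadjusted p under 0.05, and the median log2 fold change was -0.05. Kremen2, a receptor that removes Lrp6 together with Dkk proteins, was at 0.667, 0.394 and 0.501 FPKM in 5-Fu+BBR and at 1.62, 1.58 and 0.807 FPKM in 5-Fu. Its groups did not overlap, and its log2 fold change of -1.33 ± 0.36 had an adjusted p of 0.162 by edgeR and 0.0144 by DESeq2, so the call depends on the tool. Rnf43, the ligase that removes Frizzled receptors, was at 4.27, 4.93 and 5.05 FPKM in 5-Fu+BBR and at 4.02, 3.91 and 3.3 FPKM in 5-Fu (log2 fold change 0.34 ± 0.11, adjusted p = 0.216 by edgeR). Ror1, a receptor for Wnt5a, had a log2 fold change of 0.61 ± 0.23 (adjusted p = 0.27 by edgeR), and Lgr4, a receptor for R-spondins, of -0.26 ± 0.12 (adjusted p = 0.326 by edgeR).

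Of 8 genes of Wnt production and release, 1 was higher and 1 lower at an unadjusted p under 0.05, with a median of 0.21. Trabd2b, a membrane protease that inactivates Wnt ligands, was at 0.403, 0.533 and 0.657 FPKM in 5-Fu+BBR and at 0.273, 0.275 and 0.236 FPKM in 5-Fu, without overlap (log2 fold change 1.01 ± 0.26, adjusted p = 0.156 by edgeR and 0.0122 by DESeq2). Vps35, of the retromer that recycles the Wnt carrier Wls, was at 11.5, 11.8 and 13.3 FPKM in 5-Fu+BBR and at 16.3, 15.2 and 14.2 FPKM in 5-Fu (adjusted p = 0.226 by edgeR). Wls itself overlapped between the groups, with 13.2 ± 1.88 FPKM in 5-Fu+BBR and 11.2 ± 2.67 FPKM in 5-Fu (adjusted p = 0.495 by edgeR), as did the glypican Gpc4 (log2 fold change 0.25 ± 0.15, adjusted p = 0.466 by edgeR). Of 10 other secreted or retained modulators, 2 were higher at an unadjusted p under 0.05, with a median of 0.37. Shisa2, which holds Frizzled receptors inside the cell, was at 7.67, 11.1 and 12.3 FPKM in 5-Fu+BBR and at 1.92, 2.55 and 6.68 FPKM in 5-Fu. Every 5-Fu+BBR library was above every 5-Fu library, and the log2 fold change of 1.43 ± 0.53 had an adjusted p of 0.287 by edgeR and 0.0246 by DESeq2. Draxin, Frzb and Dkkl1, also secreted modulators, gave 0.92, 0.53 and -0.66 as log2 fold changes, and by edgeR adjusted p values of 0.285, 0.404 and 0.458.

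Of 23 genes of beta-catenin signal transduction, 3 were higher and 3 lower at an unadjusted p under 0.05, with a median of -0.03. Ctnnb1, which encodes beta-catenin, was at 116, 117 and 123 FPKM in 5-Fu+BBR and at 148, 155 and 157 FPKM in 5-Fu. The groups lay well apart relative to their spread, with a log2 fold change of -0.38 ± 0.13 and an adjusted p of 0.227 by edgeR and 0.0305 by DESeq2. Apc, a scaffold of the complex that destroys beta-catenin, had a log2 fold change of -0.33 ± 0.11 (adjusted p = 0.226 by edgeR). Lef1, a transcription factor that binds beta-catenin, was at 0.396, 0.526 and 0.467 FPKM in 5-Fu+BBR and at 0.164, 0.346 and 0.135 FPKM in 5-Fu, without overlap (log2 fold change 1.12 ± 0.35, adjusted p = 0.206 by edgeR and 0.0429 by DESeq2). Its relative Tcf7 was at 4.82 ± 1.47 FPKM in 5-Fu+BBR and 2.53 ± 1.0 FPKM in 5-Fu, with an adjusted p of 0.244 by edgeR. Lymphocytes also express Lef1 and Tcf7. The leukocyte markers had higher values in 5-Fu+BBR at an unadjusted p under 0.05 for 9 of 11, of which edgeR called 0 and DESeq2 7. The other 2, the neutrophil genes S100a8 and S100a9, went the other way, with 3.74 ± 6.07 and 3.52 ± 5.7 FPKM in 5-Fu+BBR and 29.7 ± 23.1 and 22.6 ± 19.7 FPKM in 5-Fu (log2 fold changes -2.89 and -2.59, adjusted p = 0.481 and 0.548 by edgeR). The part of leukocytes in the levels of Lef1 and Tcf7 was not tested.

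Among 19 target genes of Wnt signalling, 5 were higher and 0 lower at an unadjusted p under 0.05 (Lef1, Rnf43, Axin2, Tcf7 and Ascl2), and 3 of the 5 are also in the lists above. The median log2 fold change was 0.29, with 13 positive and 6 negative. Among the negative ones were Myc and Ccnd1 at -0.03, Ephb3 at -0.05 and Smoc2 at -0.48. Axin2, a widely used target gene and feedback inhibitor, was at 3.8, 5.84 and 4.39 FPKM in 5-Fu+BBR and at 3.64, 2.81 and 3.1 FPKM in 5-Fu (log2 fold change 0.54 ± 0.18, adjusted p = 0.226 by edgeR). The groups did not overlap, but the closest libraries were nearly level. Ascl2, a transcription factor of crypt stem cells, averaged 3.95 ± 0.701 FPKM in 5-Fu+BBR and 2.69 ± 0.215 FPKM in 5-Fu (log2 fold change 0.54 ± 0.20, adjusted p = 0.266 by edgeR), while the stem cell receptor Lgr5 overlapped between the groups (log2 fold change 0.39 ± 0.37, adjusted p = 0.663 by edgeR). Of 21 genes of the polarity and calcium branch, 4 were higher and 0 lower at an unadjusted p under 0.05, with a median of 0.01. These were Nfatc1, a calcium-dependent transcription factor, Daam2, a formin that binds Dishevelled, and the polarity effectors Intu and Fuz, whose log2 fold changes were 0.59, 0.44, 0.46 and 0.36 in that order, and edgeR gave them adjusted p values from 0.219 to 0.279.

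The remaining members were the non-coding genes Fzd10os and Rspo4os. Fzd10os lies on the minus strand of chromosome 5, 128579106 to 128600687, so that it begins 156 bases from the start of Fzd10, which runs the other way on the plus strand. Its log2 fold change was 1.54 ± 1.18, with an adjusted p of 0.577 by edgeR. Rspo4os lies on the minus strand of chromosome 2, 151865315 to 151866960, wholly within Rspo4 on the other strand, and had 15 counts in 5-Fu+BBR library 1 and 0 in every other library. Rspo4 had 0 counts in that library. The libraries mark the strand, but the sources used here do not say whether counting used it. How far reads of Rspo4os and Rspo4 were kept apart is thus not known.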

How the data were processed

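Colon RNA of 6 libraries was compared, with groups taken from the sample titles. Per the labels' protocols, polyadenylated RNA was made into libraries that mark the strand and carry molecular identifiers, and was read as pairs of 150 bases. StringTie 1.3.4d, HISAT2 2.0.4 and cutadapt 1.9 stand in the submitters' processing notes, with the build GRCm38 and with edgeR, DESeq2 and UMI-tools, whose roles are not stated. The authors deposited estimated counts and FPKM per gene and library. The most frequent count above 0 was 4 (5414 values), followed by 1 (5153 values), so what 1 fragment is worth is not settled. The counts are estimates, and a low count may rest on fewer fragments and look more precise than it is.

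Counts were used as deposited, filtered with filterByExpr (20101 of 30777 genes left) and scaled with TMM. The two-sided robust quasi-likelihood test of edgeR 4.0.16 (R 4.3.3) was fitted to them, and Benjamini-Hochberg adjustment ran over all genes tested. Alternatives used DESeq2 1.42.0, limma 3.58.1 and other filters, scalings and libraries. Figures used matplotlib 3.10.9. The steps were tested on simulated data.

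The members and gene lists were chosen with earlier results of these data known. Members were named with values in every library when they averaged at least 1 FPKM in either group, had an unadjusted p under 0.05, or did not overlap between groups and averaged at least 0.1 FPKM. Rspo1 and Rspo2 met none of these conditions and were given with their values as well. From each pathway list up to 4 genes with the smallest p were named. Ascl2, Lgr5, Myc, Ccnd1, Ephb3, Smoc2 and the single marker genes were added after their values were seen.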

Additional observations from a re-analysis of the deposited data

How the results depend on the processing

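In 18 alternative settings no member passed an adjusted p of 0.05; the lowest was 0.0957, for Wnt2b by DESeq2. Of the 30 coding members tested, 17 kept the sign of their log2 fold change wherever they were tested, Wnt2b, Wnt16, Wnt5b, Fzd7, Fzd2 and Sfrp1 among them, and 13 did not, Wnt5a only with 5-Fu+BBR library 1 alone. Over all genes, 12 were called higher and 3 lower. The counts were 64 and 13 without a filter, 20 and 6 with library totals only, 880 and 347 by DESeq2, and 119 and 25 at an adjusted p under 0.1. By limma-trend with either pseudocount 0 were called lower, and with 5-Fu+BBR library 1 alone against 5-Fu 0 were called in either direction. In that last fit the spread comes from the 5-Fu libraries alone and the lone library is assumed to vary like them, so its 0 says little. Leaving out 1 library gave 0 to 145 higher and 0 to 15 lower, with 0 in both directions without 5-Fu+BBR library 2 or without 5-Fu library 1. The cause was not tested.

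With a replicate block, 91 genes were called higher and 22 lower, and Wnt2 (0.03), Wnt10b (-0.30) and Dkk2 (0.37) changed sign. Deviations of libraries with the same number correlated at 0.04, 0.05 and 0.19, and those with different numbers between -0.22 and 0.16. The labels do not give the numbers as pairs, so the main fit used no block. Whether the numbers are pairs was not settled. Sign also changed for Wnt10b (-0.35) and Dkk2 (1.17) by limma-voom, for Wnt10b (-0.07) and Sfrp2 (0.01) on log2(FPKM + 0.1), and, with 5-Fu+BBR library 1 alone, for Wnt5a (-0.25), Wnt2 (0.55), Wnt10b (-0.55), Fzd5 (0.01), Dkk2 (0.11) and Fzd10os (-0.34). Leaving out 1 library gave ranges that crossed or reached 0 for Wnt4 (0.00 to 0.79), Wnt9a (-0.10 to 0.37), Wnt11 (-0.17 to 0.42), Wnt2 (-0.59 to 0.48), Wnt10b (-0.98 to 0.46), Fzd5 (-0.19 to 0.01), Fzd9 (-1.52 to 0.26), Rspo3 (-0.38 to 0.02), Dkk3 (-0.03 to 0.23), Sfrp2 (-0.56 to 0.20), Sfrp4 (-0.28 to 0.16) and Dkk2 (-0.76 to 0.62). None of the 11 ligands tested had a 95% interval within 2-fold either way, and the part of depth in that was not tested. Without Dkk3, the ratio of inhibitors to ligands averaged 1.02 in 5-Fu+BBR and 1.21 in 5-Fu, against 2.51 and 3.37 with it.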

Other observations

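Some members are neighbours in the genome. Wnt6 and Wnt10a lie on chromosome 1 with 6193 bases between them, on the same strand, and averaged 0.441 and 0.0193 FPKM over the 6 libraries. Wnt9b and Wnt3 lie on chromosome 11, 24.3 kb apart on opposite strands, and averaged 0.00989 and 0.088 FPKM.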
